A study of Rattus norvegicus with 4 samples.

Results

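A set of 9 potassium channel genes that govern how readily a sensory neuron fires was followed through the cells of the rat dorsal root ganglion: Kcna1, Kcna2, Kcna4, Kcna5, Kcnq3, Kcnq5, Kcnv1, Kcnk2 and Kcnk18. They were chosen by symbol, and all 9 were found, each as 1 of the 25629 features of the count tables. Their levels were compared across types of neuron, across the other cells of the ganglion, and between rats of the CPIP model and sham rats.

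Potassium channels let potassium leave the cell, which holds the membrane near rest and ends the action potential. Kv1 channels (Kcna genes) open at voltages close to threshold and restrain repetitive firing, Kv7 channels (Kcnq genes) carry the slow M-current, Kv8.1 (Kcnv1) is a subunit that forms no channel alone but alters Kv2 channels, and 2-pore channels (Kcnk genes) carry background leak. In sensory ganglia a loss of these currents makes neurons more excitable, and several of the genes are known to fall after injury of a peripheral nerve in rodents.

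The ganglia were the ipsilateral L4 to L6 ganglia of male Sprague-Dawley rats described as wild type and naïve. The CPIP group came from rats of that model, a name the labels do not spell out and that stands in the field for chronic post-ischaemia pain. The other group came from sham rats. No transgene or drug was named for either group. Each group had 2 libraries (CPIP 1, CPIP 2, Sham 1 and Sham 2), each library pooled 3 rats, and the labels call the libraries biological replicates. Tissue was dissociated with dispase, collagenase and DNase and then papain, and single cells were caught with barcoded beads in microwells (BD Rhapsody). The time after the model was made is not given in the sources used here.

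The libraries held 62358475 and 63541024 unique molecular identifiers (UMIs, each marking 1 captured RNA molecule) in CPIP 1 and CPIP 2, against 60885664 and 64550637 in Sham 1 and Sham 2. After filtering, 10668 to 11566 cells a library were kept, and any pair of libraries shared 1 to 5 cell barcodes. CPIP 2 stood apart from the other libraries in its neurons: a chi-square of the summed counts, per degree of freedom, was 26.6 to 29.3 in its 3 pairs, and 9.56 to 12.6 in the 3 pairs without it. Neurons numbered 2599 and 2294 in the CPIP libraries, against 2947 and 2665 in the Sham libraries. The 14 neuron markers checked, among them Tubb3, Snap25 and Uchl1, summed to 18200 and 20062 CPM (UMIs per 1000000 UMIs of the same cells) in CPIP neurons, against 18086 and 18490 CPM in Sham neurons. In satellite glia-like cells the same sum was 678 and 699 CPM in CPIP, against 684 and 641 CPM in Sham.

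Neurons were divided into clusters with every potassium channel gene of the lists left out of the clustering, so that no described gene drew a boundary. A total of 12 clusters had at least 30 cells in every library, and they are called here by genes that led them. The Pvalb and Ntng1 clusters were neurofilament-rich-like, the type of large myelinated fibres for touch and body position. The Adcyap1 cluster was peptidergic nociceptor-like, the Iapp cluster was like Mrgprd nociceptors, the Sst cluster was like the itch neurons that make Sst and Nppb, the Nmu cluster was like C-fibre low-threshold mechanoreceptors, and the Trpm8 cluster was like cold-sensing neurons. The Pcp4/Mgll, S100a16, Mrgprb4, Anxa1/Iapp and Pkib clusters met no naming rule and are known here only by those genes. The Pcp4/Mgll cluster was the shallowest, with a median of 1869 UMIs a cell, beside 2959 in the Pvalb cluster and 5488 to 13240 in the other 10.

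Kcna1 encodes Kv1.1 and Kcna2 encodes Kv1.2, which join in the same channels along the axon beside the nodes of Ranvier. Of the 12 clusters, both were highest in 3, the Pcp4/Mgll cluster and the neurofilament-rich-like Ntng1 and Pvalb clusters. Kcna1 measured 743 and 761 CPM in the Pcp4/Mgll cluster of CPIP 1 and CPIP 2, against 830 and 672 CPM in Sham 1 and Sham 2. Over the 4 libraries its mean there was 752 ± 64.8 CPM, beside 662 ± 291 in the Ntng1 cluster and 535 ± 74.4 in the Pvalb cluster (SD, n = 4 libraries, here and for every mean over clusters). Each of these overlapped within 1 SD with its neighbour in the order, while the Pcp4/Mgll and Pvalb levels did not overlap with each other. All 3 stood above the next, 207 ± 31.8 CPM in the S100a16 cluster, which overlapped with 193 ± 25.8 CPM in the Sst cluster. The Ntng1 mean rests on Sham 2, which held 45 such cells and read 1097 CPM, while CPIP 1, CPIP 2 and Sham 1 read 545, 517 and 489 CPM. The Ntng1 cluster held 87 and 113 cells in the CPIP libraries, against 137 and 45 in the Sham libraries. Of these, 45 and 75 in CPIP and 50 and 18 in Sham had at most 10% mitochondrial UMIs. Under that limit the Ntng1 cluster was the highest for Kcna1, at 795 ± 378 CPM, and for Kcna2, at 555 ± 187 CPM. Kcna1 was lowest in the Trpm8 cluster at 7.71 ± 2.39 CPM, a 97.4-fold span from the highest cluster, and the Nmu and Adcyap1 clusters, at 11.9 and 16.6 CPM, overlapped within 1 SD with their neighbours in the order. Kcna1 was thus high in the Pcp4/Mgll, Ntng1 and Pvalb clusters and low in the Trpm8, Nmu and Adcyap1 clusters. A further neurofilament-rich-like cluster, led by Crtac1, held 1 cell in CPIP 1 and is not among the 12. It had 1.90% of the Kcna1 UMIs of neurons, beside 1.24% of all neuron UMIs.

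Kcna2 had the same 3 clusters on top, with 526 ± 78.1 CPM in the Pcp4/Mgll cluster, 493 ± 184 in the Ntng1 cluster and 346 ± 49.5 in the Pvalb cluster. Neighbours in this order overlapped within 1 SD, but the Pcp4/Mgll and Pvalb levels did not. It differed from Kcna1 lower down. The Trpm8 cluster, lowest for Kcna1, was at rank 4 for Kcna2 at 192 ± 29.5 CPM, and the Sst cluster, at rank 5 for Kcna1, was the lowest for Kcna2 at 14.5 ± 4.51 CPM. The Sst value stood clear of every other cluster, the nearest being the Mrgprb4 cluster at 53.8 ± 6.90 CPM. The span from the highest to the lowest cluster was 36.2-fold. The 2 partner genes thus had opposite places in the Sst and Trpm8 clusters.

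**Figure D1:**
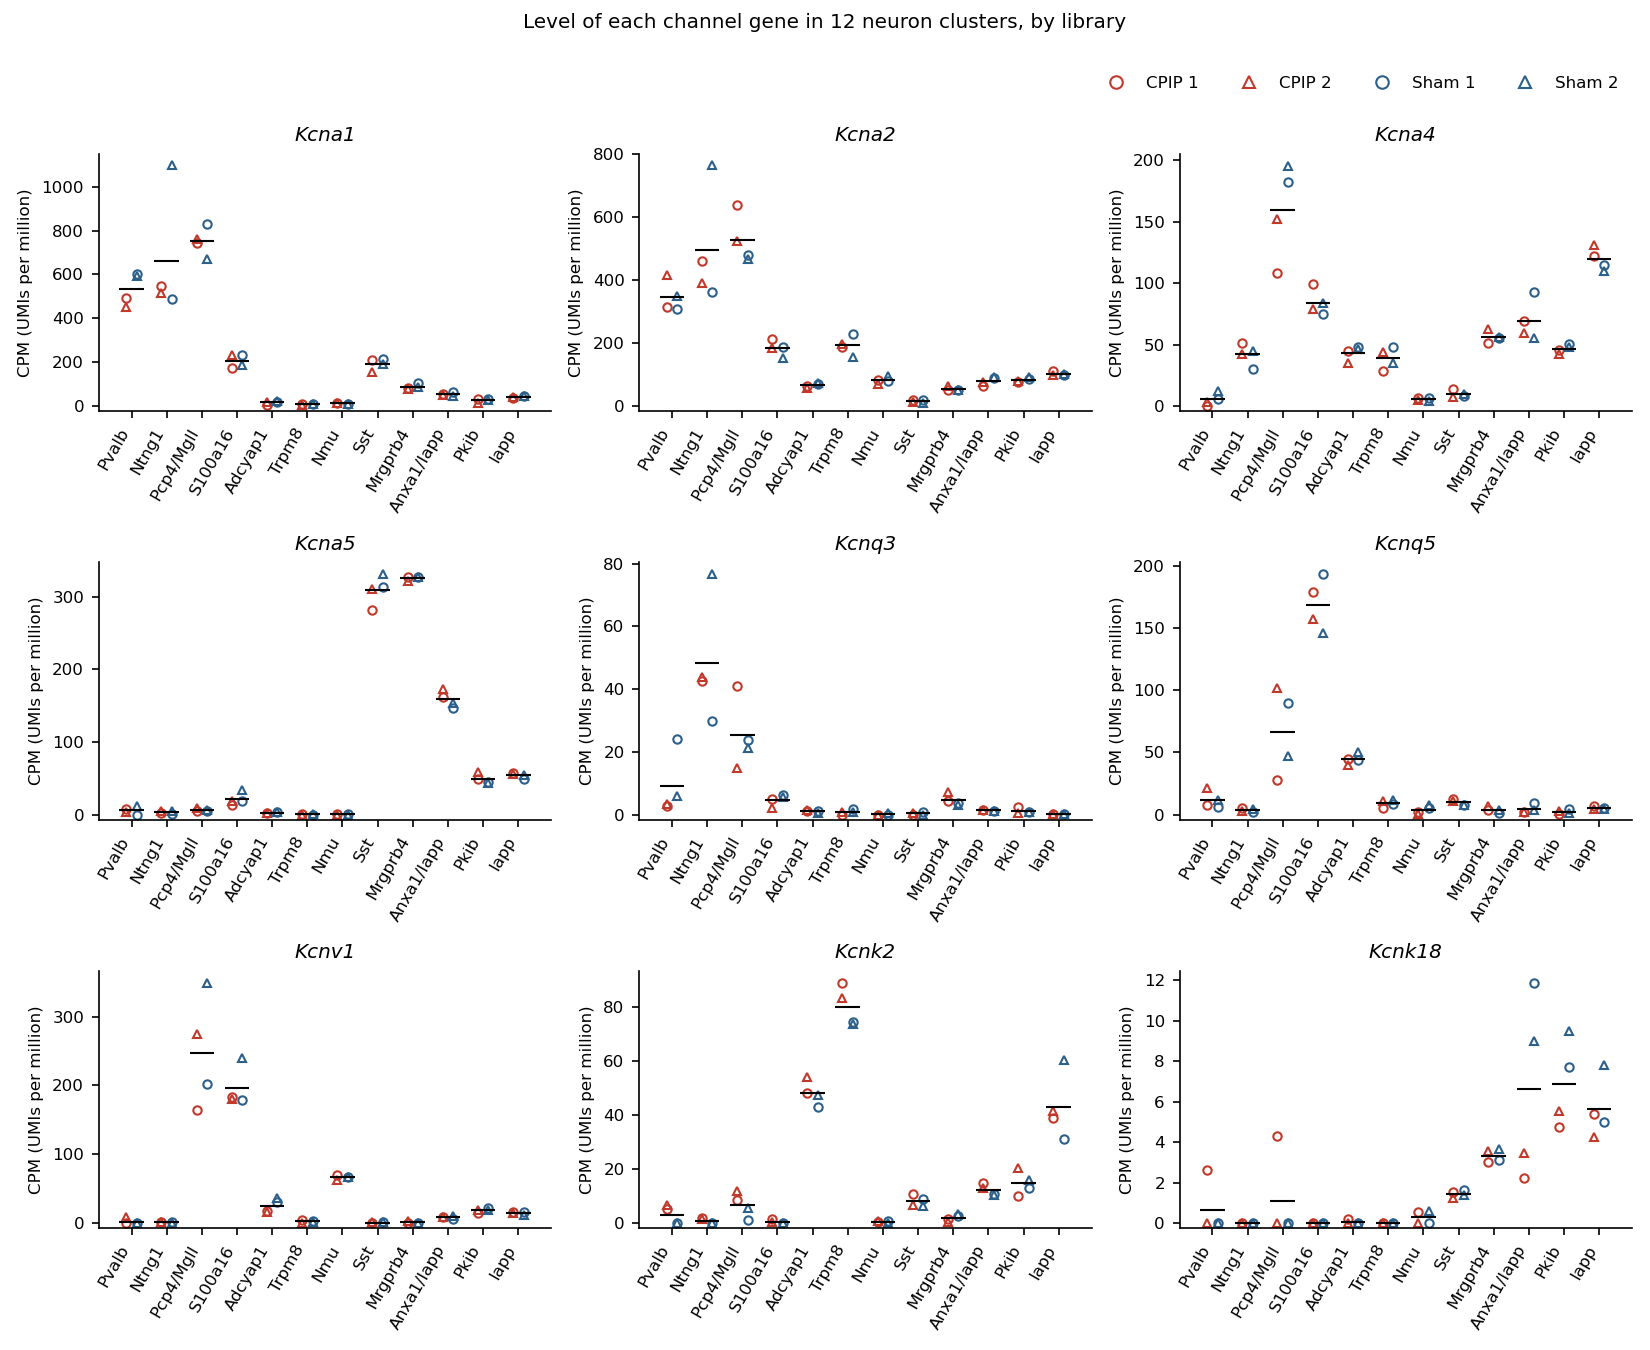
Level of each of the 9 channel genes (vertical axis, CPM, linear) in the 12 neuron clusters (horizontal axis, named by leading genes). Each point is 1 library, CPIP in red left of Sham in blue, and the black line is the mean of the 4 libraries; Kcna5 reads about 326 CPM in the Mrgprb4 cluster and near 0 in the Nmu and Trpm8 clusters, and the Ntng1 points of Sham 2 lie apart for Kcna1, Kcna2 and Kcnq3.

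Kcna4 encodes Kv1.4, a rapidly inactivating channel known as the main Kv1 subunit of small sensory neurons. It reached 160 ± 39.0 CPM in the Pcp4/Mgll cluster and 119 ± 9.18 in the Iapp cluster, levels that overlapped within 1 SD, and 84.3 ± 10.9 CPM in the S100a16 cluster. In the Iapp cluster it read 122 and 131 CPM in CPIP 1 and CPIP 2, against 115 and 110 CPM in Sham 1 and Sham 2. Its lowest levels were 9.70 ± 2.82 CPM in the Sst cluster, 5.73 ± 1.23 in the Nmu cluster and 5.33 ± 5.09 in the Pvalb cluster, each overlapping with the next. The proprioceptor-type Pvalb neurons, rich in Kcna1 and Kcna2, thus held little Kcna4, and the Iapp cluster held 35.1% ± 3.96 of all Kcna4 UMIs of neurons while it held 18.1% of all neuron UMIs.

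Kcna5 encodes Kv1.5, a delayed rectifier best known from cardiac and vascular muscle. It had the most restricted pattern of the Kv1 genes. It read 327 and 322 CPM in the Mrgprb4 cluster of CPIP 1 and CPIP 2, against 327 and 328 CPM in Sham 1 and Sham 2, and 282 and 311 CPM in the Sst cluster of the CPIP libraries, against 314 and 331 CPM in the Sham libraries. The 2 means, 326 ± 2.65 and 309 ± 20.6 CPM, overlapped. The Anxa1/Iapp cluster followed at 159 ± 11.1 CPM, then the Iapp and Pkib clusters at 54.2 ± 3.82 and 48.9 ± 6.48 CPM, which overlapped, and the S100a16 cluster at 21.1 ± 8.34 CPM. The other 6 clusters were under 6 CPM. In the Trpm8, Nmu and Ntng1 clusters the mean lay below the level that 3 UMIs a library would give. The Pvalb mean lay below that level in CPIP 1, Sham 1 and Sham 2. The Mrgprb4 cluster held 47.7% ± 8.77 of the Kcna5 UMIs and 12.6% of all neuron UMIs. Kcna2 and Kcna5 were the most opposed pair of the 9 genes over the 12 clusters, with Pearson r = -0.60 on log2(CPM + 1).

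The starts of these 2 opposed genes are shown because they belong to the same Kv1 family. The sequences are the 250 bases before each gene's start in RefSeq's GRCr8 assembly of the rat genome, Kcna2 from chr2:197393280-197393529 (plus strand) and Kcna5 from chr4:161043810-161044059 (minus strand), written 5′ to 3′. Capitals mark matches to 2 motifs searched on both strands, the E-box CANNTG and the GC box GGGCGG.
Kcna2: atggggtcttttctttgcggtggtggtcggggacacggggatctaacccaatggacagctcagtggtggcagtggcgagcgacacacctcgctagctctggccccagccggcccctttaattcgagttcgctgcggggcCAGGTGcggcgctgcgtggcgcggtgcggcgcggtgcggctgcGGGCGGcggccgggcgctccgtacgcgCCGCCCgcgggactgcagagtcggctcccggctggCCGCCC
Kcna5: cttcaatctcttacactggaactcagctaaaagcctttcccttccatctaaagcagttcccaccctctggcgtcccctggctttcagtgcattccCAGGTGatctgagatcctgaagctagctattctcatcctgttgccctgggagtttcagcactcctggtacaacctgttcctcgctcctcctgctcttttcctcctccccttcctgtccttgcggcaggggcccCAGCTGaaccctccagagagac
The Kcna2 window is 72.4% G and C and holds 1 E-box and 3 GC boxes, while the Kcna5 window is 54.8% G and C and holds 2 E-boxes and 0 GC boxes. The 2 motifs had 0 overlaps in either window. Of the 33469 windows of the same length in the table, 65.5% hold an E-box and 30.5% hold a GC box. A match describes the letters of the window and was not tested as a binding site. Windows for 6 of the 9 genes were in the table.

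Kcnq3 encodes Kv7.3 and Kcnq5 encodes Kv7.5, subunits of the M-current that opens slowly below threshold. Kcnq3 was a low-count gene, with 355 UMIs in all neurons. It was highest in the Ntng1 cluster, at 42.5 and 44.0 CPM in CPIP 1 and CPIP 2, against 29.8 and 76.7 CPM in Sham 1 and Sham 2, and next in the Pcp4/Mgll cluster at 25.2 ± 11.2 CPM and the Pvalb cluster at 8.98 ± 10.1 CPM, with overlap between neighbours. From the Anxa1/Iapp cluster downward 7 clusters had under 2 CPM. Its 3 highest clusters of the 12 were the same 3 as for Kcna1 and Kcna2. The Crtac1 cluster, not among the 12, had 12.1% ± 8.65 of the Kcnq3 UMIs of neurons, beside 1.24% of all neuron UMIs.

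Kcnq5 stood apart in 1 cluster. It read 179 and 157 CPM in the S100a16 cluster of CPIP 1 and CPIP 2, against 193 and 146 CPM in Sham 1 and Sham 2. That mean, 169 ± 21.2 CPM, did not overlap with the next, 66.5 ± 34.7 CPM in the Pcp4/Mgll cluster, which overlapped with 44.7 ± 4.41 CPM in the Adcyap1 cluster. The other 9 clusters lay at 2.37 to 11.8 CPM, most of them overlapping with their neighbours. In the Mrgprb4, Anxa1/Iapp, Pkib, Iapp and Nmu clusters no mean of either Kv7 gene passed 5.18 CPM. For the scarcer Kcnq3 the Mrgprb4 cluster was still at rank 5, at 4.51 ± 1.84 CPM. It held 15.3% of the Kcnq3 UMIs and 12.6% of all neuron UMIs.

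A further set of 4 clusters scored as neurons but held few UMIs, with medians of 695 to 861 UMIs a cell against 1869 to 13240 in the 12 clusters above, and they were kept apart. Kcnq5 was far higher there. In low-UMI cluster 13, which it led, Kcnq5 read 1110 and 1226 CPM in CPIP 1 and CPIP 2, against 1196 and 938 CPM in Sham 1 and Sham 2, while in the neurons above it averaged 25.5 ± 2.55 CPM. Kcnq3 was high in low-UMI cluster 27, at 114 ± 28.8 CPM, against 3.58 ± 0.50 CPM in the neurons above. Cluster 13 held 1979 cells and cluster 27 held 361, and Dpp10 and Ntng1 were the first 2 genes of cluster 27. In these 4 clusters together the 14 neuron markers summed to 10163 and 11071 CPM in CPIP, against 10336 and 10548 CPM in Sham, below the sums in the other neurons. Whether these barcodes hold whole cells was not tested, nor was the part of their low depth in these levels.

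**Figure D2:**
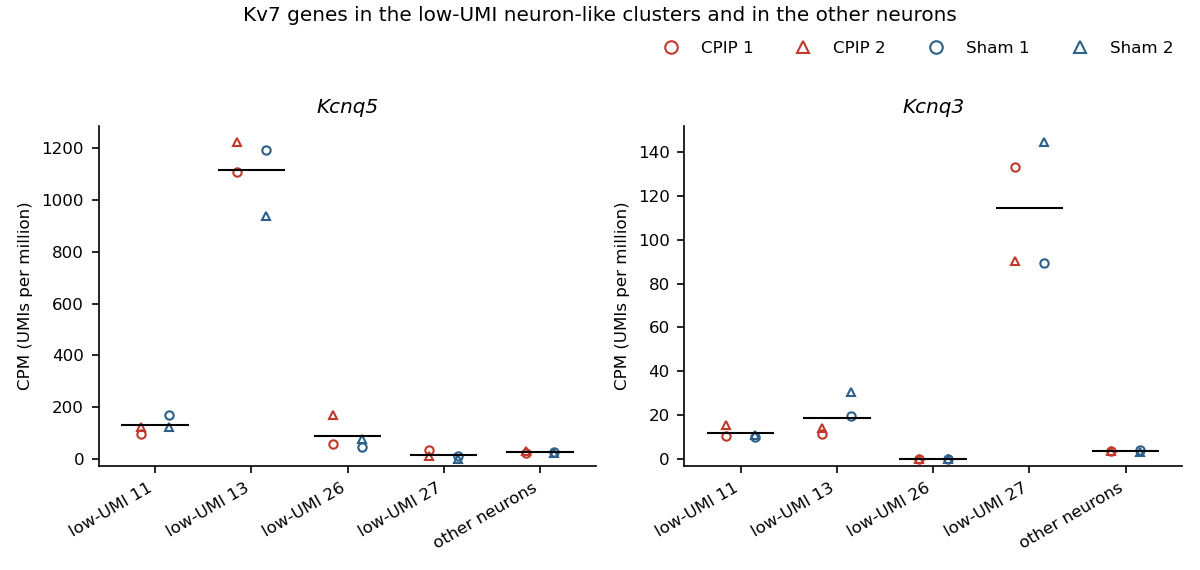
Level of Kcnq5 and Kcnq3 (vertical axes, CPM, linear, different ranges) in the 4 low-UMI neuron-like clusters and in the other neurons (horizontal axis). Points are libraries, CPIP in red left of Sham in blue, and black lines are means of 4; Kcnq5 stands at 1117 CPM in cluster 13 and Kcnq3 at 114 CPM in cluster 27.

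Kcnv1, the silent Kv8.1 subunit, was concentrated in 2 clusters. In the Pcp4/Mgll cluster it read 164 and 275 CPM in CPIP 1 and CPIP 2, against 202 and 349 CPM in Sham 1 and Sham 2. In the S100a16 cluster it read 183 and 181 CPM in the CPIP libraries, against 179 and 240 CPM in the Sham libraries. The means, 247 ± 81.9 and 196 ± 29.6 CPM, overlapped, and the Nmu cluster came next, apart from both, at 66.5 ± 2.59 CPM. The Adcyap1 cluster held 25.1 ± 9.46 CPM, while the Trpm8, Pvalb, Mrgprb4, Ntng1 and Sst clusters held 0.739 to 2.44 CPM. At a finer division of the neurons, Kcnv1 read 354 ± 57.7 CPM in a cluster led by itself, Cd9 and Mgll, and 17.2 ± 9.63 CPM in a cluster led by Pcp4 and Chodl, and the mean of the undivided cluster lies between them. Kcnv1 and Kcna1, both absent from the clustering, stood among the 10 leading genes of the Pcp4/Mgll cluster.

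Kcnk2 encodes TREK-1, a leak channel opened by stretch, warmth and fatty acids. It was highest in the Trpm8 cluster, at 89.0 and 83.1 CPM in CPIP 1 and CPIP 2, against 74.2 and 73.8 CPM in Sham 1 and Sham 2. That level, 80.0 ± 7.36 CPM, stood clear of the Adcyap1 cluster at 48.1 ± 4.62 CPM, which overlapped with the Iapp cluster at 43.0 ± 12.3 CPM. All others of the 12 clusters were under 15 CPM, and the Mrgprb4, Ntng1, S100a16 and Nmu clusters were at 0.480 to 1.99 CPM. The Trpm8, Adcyap1 and Iapp clusters thus held the highest levels of the TREK-1 gene, and the Pvalb and Ntng1 clusters held little. The Crtac1 cluster, not among the 12, had 1.55% of the Kcnk2 UMIs of neurons, beside 1.24% of all neuron UMIs.

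Kcnk18 encodes TRESK, a leak channel switched on by calcineurin and known mainly from sensory ganglia. It was sparse here, with 263 UMIs in all neurons, 60 and 43 in CPIP 1 and CPIP 2, against 75 and 85 in Sham 1 and Sham 2. Of the 12 clusters, the Pkib, Anxa1/Iapp and Iapp clusters were highest, at 6.87 ± 2.16, 6.63 ± 4.56 and 5.61 ± 1.55 CPM, which overlapped. The Mrgprb4 cluster followed at 3.33 ± 0.332 CPM and the Sst cluster at 1.44 ± 0.166 CPM. The Alk and Scn11a cluster, not among the 12, had 5.21% ± 1.415 of the Kcnk18 UMIs of neurons, beside 0.695% of all neuron UMIs. At the finer division, Kcnk18 was highest in a cluster led by Alk and Iapp, at 12.2 ± 2.85 CPM. No UMI was found in the S100a16, Ntng1 or Trpm8 clusters, where 3 UMIs, the limit that a count of 0 allows, would have given 1.65 to 13.5 CPM depending on the library. The Iapp, Pkib and Mrgprb4 clusters together with the Anxa1/Iapp cluster held the bulk of its UMIs, with 38.1% in the Iapp cluster alone.

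Across the 12 clusters the 9 genes fell into a few shared patterns, described by Pearson's r of log2(CPM + 1) over cluster means, which share libraries and depth. Kcnq3 was closest to Kcna1 (r = 0.81) and Kcna2 (r = 0.76), Kcna5 to Kcnk18 (r = 0.74) and Kcnv1 to Kcnq5 (r = 0.63). Kcna4 and Kcnk2 had no partner above r = 0.38 and r = 0.30. Among 7181 features with at least 20 CPM in 1 cluster, those most like each gene were Gfm2, Gmpr and LOC108348137 for Kcna1 (r = 0.92, 0.91 and 0.91), Limk1, Tmem25 and Wdr33 for Kcna2 (0.93, 0.93 and 0.93) and Nrg3, Rragc and Rufy2 for Kcna4 (0.90, 0.87 and 0.86). For Kcna5 they were Cysltr2, Dpyd and Prickle4 (0.94, 0.92 and 0.92), for Kcnq3 Lnpep, Pla2g7 and Ccdc102a (0.94, 0.93 and 0.92) and for Kcnq5 Bcl11b, Agap1 and Tdo2 (0.95, 0.93 and 0.93). Kcnv1 was most like C2cd2l, Tbxa2r and Terf2ip (0.87, 0.83 and 0.82), Kcnk2 most like Arg1, Arxes2 and Mylip (0.90, 0.85 and 0.84), and Kcnk18 most like Amdhd1, Celsr1 and Nog (0.95, 0.95 and 0.95). Cysltr2, the receptor for cysteinyl leukotrienes, is a known gene of itch neurons, and Bcl11b is a transcription factor.

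Outside the neurons, several of the genes had a higher mean in another class than over all neurons. In myelinating Schwann cell-like cells Kcna1 read 847 and 828 CPM in CPIP 1 and CPIP 2, against 765 and 854 CPM in Sham 1 and Sham 2, a mean of 824 ± 40.3 CPM beside 95.8 ± 9.97 CPM over all neurons. Kcna2 averaged 322 ± 46.2 CPM there, beside 111 ± 5.33 CPM in neurons. The 14 neuron markers summed in these cells to 1773 and 1897 CPM in CPIP, against 1489 and 1695 CPM in Sham, well under the sums in neurons given above, and satellite glia markers summed to 12999 to 14243 CPM.

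Kcna5 averaged 137 ± 42.6 CPM in smooth muscle-like cells and 38.3 ± 14.7 CPM in myelinating Schwann cell-like cells, beside 85.6 ± 4.06 CPM in neurons. Kcnk2 averaged 59.8 ± 21.6 CPM in fibroblast-like cells, beside 27.3 ± 3.84 CPM in neurons. In the smooth muscle-like and fibroblast-like cells the neuron markers summed to no more than 1215 CPM in any library. Kcna4, Kcnq3, Kcnv1 and Kcnk18 were below their neuron mean in satellite glia-, myelinating Schwann cell-, endothelial-, smooth muscle-, fibroblast- and macrophage-like cells, except that Kcnq3 in pericyte-like cells read 4.84 CPM; Kcnq5 read 73.5 CPM in those pericyte-like cells, where neuron markers summed to 2697 to 3666 CPM. Kcna1, Kcna2, Kcna5 and Kcnk2 were thus not confined to neurons in these libraries. Kcnq5 was above its neuron mean in pericyte-like cells as well, and the part of neuron RNA in the pericyte-like values was not tested. The pericyte-like cells held only 98641 to 127271 UMIs a library. The Kcnq3 value there rests on too few UMIs to be set above or below the neuron mean.

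**Figure D3:**
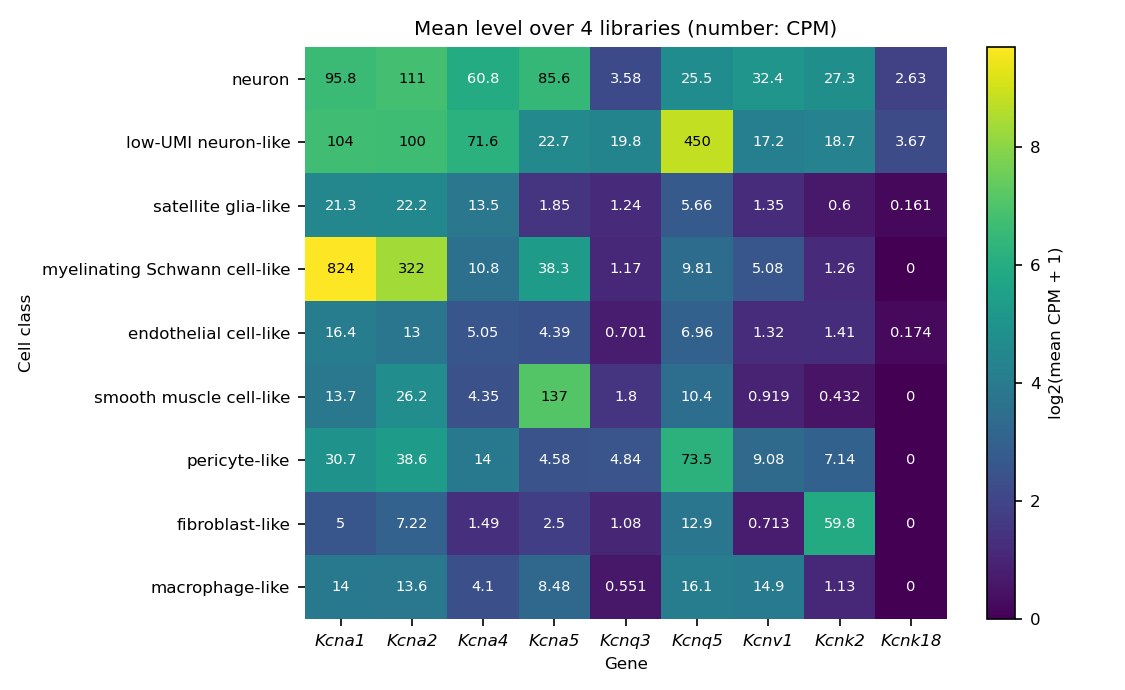
Mean level over 4 libraries of the 9 channel genes (columns) in neurons and 8 other cell classes (rows), as log2(mean CPM + 1) in colour with the CPM printed in each cell. Kcna1 and Kcna2 are brightest in myelinating Schwann cell-like cells (824 and 322 CPM), Kcnq5 in low-UMI neuron-like cells (450 CPM) and Kcna5 in smooth muscle-like cells (137 CPM).

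Whether the CPIP model changed these genes was first asked over all neurons, with UMI counts summed per library. None of the 9 genes was called at an adjusted p under 0.05 by edgeR's quasi-likelihood test, against 0.00733% of the 13644 genes tested (1 gene), and none was called by DESeq2, which called 0.062% of all genes. At an unadjusted p under 0.05, edgeR marked 0 of the 9, against 3.89% of all genes. Groups of 2 did not overlap in 2 of the 9 genes, against 33.3% of all features of at least 1 CPM. All 9 genes passed the low-count filter here.

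The Kv1 genes differed by little. Kcna1 read 86.1 and 95.6 CPM in CPIP 1 and CPIP 2, against 110 and 91.9 CPM in Sham 1 and Sham 2, a log2 change of -0.14 (SE 0.11). Kcna2 read 113 and 113 CPM in the CPIP libraries, against 115 and 103 CPM in the Sham libraries, a log2 change of 0.06 (SE 0.09). In both genes the groups overlapped. Kcna4 averaged 59.3 ± 4.58 CPM in CPIP and 62.3 ± 4.24 CPM in Sham neurons (log2 change -0.06, SE 0.10), and Kcna5 averaged 85.7 ± 6.88 CPM in CPIP and 85.5 ± 1.44 CPM in Sham (0.01, SE 0.09; SD, n = 2 libraries each).

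The Kv7 genes and TREK-1 overlapped between groups as well. Kcnq3 averaged 3.53 ± 0.159 CPM in CPIP and 3.62 ± 0.850 CPM in Sham neurons (log2 change -0.03, SE 0.23), Kcnq5 averaged 26.2 ± 4.0 CPM in CPIP and 24.9 ± 1.40 CPM in Sham (0.08, SE 0.13), and Kcnk2 averaged 27.9 ± 1.61 CPM in CPIP and 26.7 ± 6.33 CPM in Sham (0.07, SE 0.17). Only Kcnv1 and Kcnk18 had both CPIP libraries below both Sham libraries. Kcnv1 read 27.6 and 31.4 CPM in CPIP 1 and CPIP 2, against 32.1 and 38.6 CPM in Sham 1 and Sham 2 (log2 change -0.25, SE 0.13, edgeR adjusted p = 0.969). With every cluster weighted equally the direction of Kcnv1 turned, with a mean log2(CPM + 1) of 3.43 and 3.8 in CPIP, against 3.52 and 3.48 in Sham, a difference of 0.11. In such a mean clusters with a few UMIs count as much as any other. In the Pvalb cluster Kcnv1 read 8.23 CPM in CPIP 2 and 0 in CPIP 1, Sham 1 and Sham 2. The part of that cluster in the turn was not tested. The Pcp4/Mgll cluster, where Kcnv1 was highest, held 148 and 136 cells in CPIP, against 196 and 235 in Sham, and the part of that in the Kcnv1 values was not tested. Kcnk18 read 2.44 and 1.89 CPM in the CPIP libraries, against 2.83 and 3.38 CPM in the Sham libraries (log2 change -0.50, SE 0.24, adjusted p = 0.969), and with every cluster weighted equally its difference was -0.035. Without CPIP 2 the log2 changes were -0.34 for Kcnv1 and -0.33 for Kcnk18, and without CPIP 1 they were -0.17 and -0.71. Neither difference passed the test, and a miss with 2 libraries a group does not show equal levels.

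**Figure D4:**
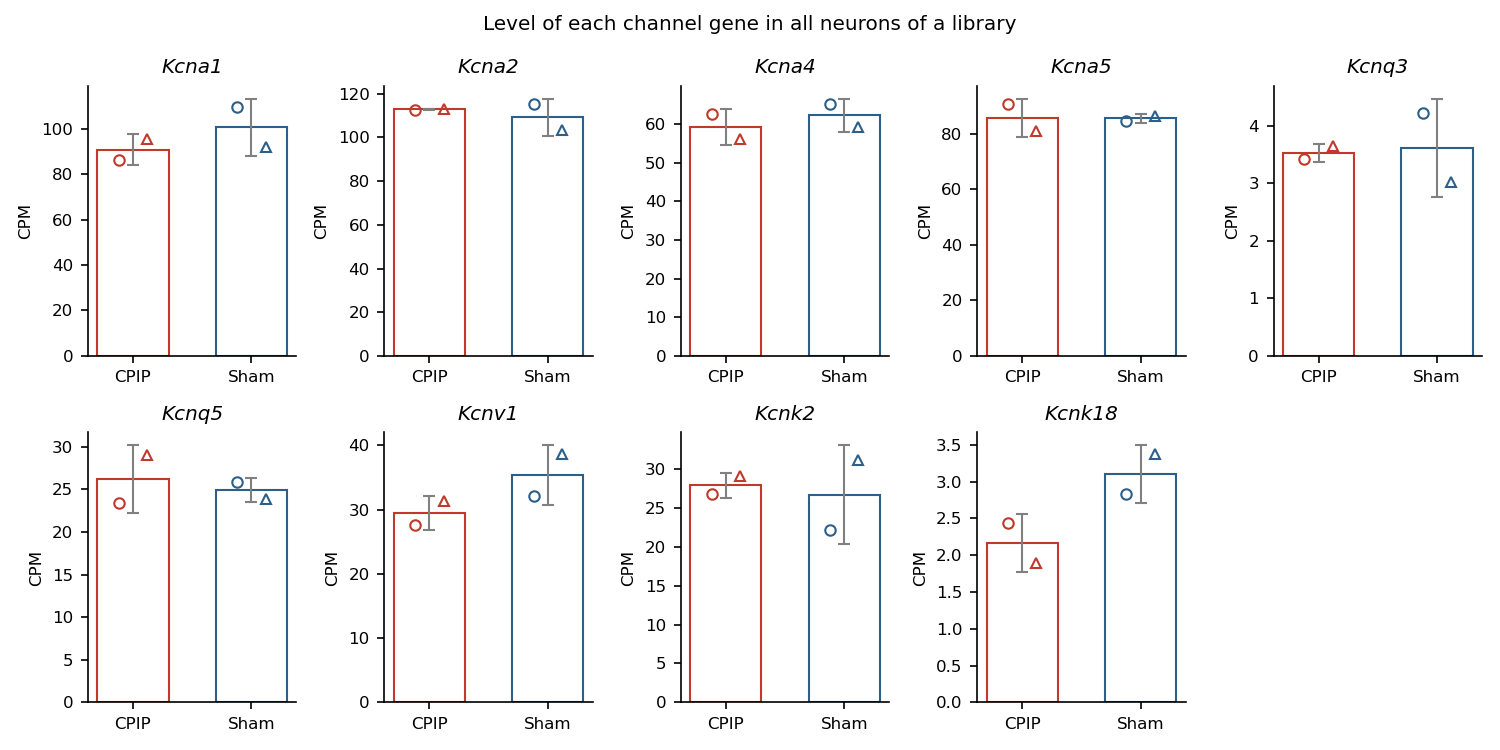
Level of each of the 9 channel genes (vertical axes, CPM from 0) in all neurons of a library, CPIP left of Sham. Bars are means of 2 libraries, whiskers are SD and points are single libraries; the CPIP points of Kcnv1 and Kcnk18 lie below their Sham points, and in the other 7 genes the groups overlap.

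Each of the 12 neuron clusters was then tested alone. Of 108 possible pairs of gene and cluster, 67 passed the low-count filter, and 0 of the 67 were called by edgeR (0.00314% of all genes over the 12 tests) or by DESeq2. An unadjusted edgeR p under 0.05 was reached in 3 of the 67, against 4.6% of all genes. These clusters come from the same 4 libraries and are not independent of each other.

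The smallest p belonged to Kcnv1 in the peptidergic-like Adcyap1 cluster. It read 17.9 and 16.4 CPM in CPIP 1 and CPIP 2, against 30.4 and 35.7 CPM in Sham 1 and Sham 2, from 89 and 89 UMIs in CPIP and 166 and 244 UMIs in Sham. The log2 change was -0.93 (SE 0.15, edgeR adjusted p = 0.574). Without the low-count filter it was called (edgeR adjusted p = 0.00101), in a fit that called 189 of 17038 genes. With RLE size factors the edgeR adjusted p was 0.591, and by DESeq2 the adjusted p was 0.405. With 1 library left out the log2 change was -1.05 to -0.80. In the cells of this cluster that a finer clustering also named peptidergic, an alternative added after seeing the data, Kcnv1 read 17.3 and 7.81 CPM in the CPIP libraries, against 23.4 and 17.9 CPM in the Sham libraries, with a log2 change of -0.71 (SE 0.34, adjusted p = 0.773). The direction was the same, with groups closer together.

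Kcna5 is scarce in the Adcyap1 cluster, where it had 8 and 8 UMIs in CPIP 1 and CPIP 2, against 18 and 27 UMIs in Sham 1 and Sham 2. It passed the low-count filter there, at 1.84 CPM, through the Sham libraries alone, the 1 such pair of the 67, so its unadjusted p under 0.05 supports nothing and its fold is not given. In the Mrgprb4 cluster, where its level was highest, its log2 change was 0.01 (SE 0.09). Kcna4 in the Pcp4/Mgll cluster read 108 and 152 CPM in the CPIP libraries, against 183 and 196 CPM in the Sham libraries (log2 change -0.60, SE 0.21, edgeR adjusted p = 0.901). The make-up of that cluster moved as well. The finer cluster led by Kcnv1, Cd9 and Mgll, where Kcna4 averaged 198 CPM, held 45 and 74 cells in CPIP, against 101 and 177 in Sham, while the one led by Pcp4 and Chodl, where Kcna4 averaged 37.1 CPM, held 111 and 80 in CPIP, against 119 and 96 in Sham. Peptidergic markers summed in the Pcp4/Mgll cluster to 5549 and 8787 CPM in CPIP, against 7420 and 12350 CPM in Sham, and the part of this make-up in the Kcna4 values was not tested. Kcnv1 and Kcna5 in the Adcyap1 cluster and Kcna4 in the Pcp4/Mgll cluster were the 3 pairs with an unadjusted p under 0.05, a level reached by 6.57% of all genes in the Adcyap1 cluster and 5.26% in the Pcp4/Mgll cluster, and none passed the adjustment over all genes.

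The log2 change of Kcna1 was below 0 in 11 of 12 clusters, with a median of -0.22 and a range of -0.77 in the Adcyap1 cluster to 0.63 in the Nmu cluster, where the median of all tested genes lay between 0.000260 and 0.0105 in every cluster. In the neurofilament-rich-like Pvalb cluster Kcna1 read 493 and 451 CPM in CPIP 1 and CPIP 2, against 600.4 and 594.6 CPM in Sham 1 and Sham 2 (log2 change -0.31, SE 0.19). In the Adcyap1 cluster it read 6.82 and 17.3 CPM in the CPIP libraries, against 20.1 and 22.0 CPM in the Sham libraries. No cluster reached an unadjusted edgeR p under 0.05 for Kcna1, the smallest being 0.0804. Calls appeared only when a library was left out, which leaves 1 group as a single library whose spread is taken from the other. For those fits only the log2 changes are given. Without CPIP 2 the change of Kcna1 was -1.62 in the Adcyap1 cluster, and without CPIP 1 it was -1.03 in the Pkib cluster. Without Sham 1 the changes in the Ntng1 cluster were -1.12 for Kcna1 and -0.92 for Kcna2. There Sham 2, with 45 such cells, was the lone Sham library.

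The other genes were divided in direction. Kcna2 was above 0 in 7 of 12 clusters (range -0.42 to 0.26), Kcna4 in 6 of 11, Kcna5 in 4 of 7, Kcnq5 in 3 of 7, Kcnv1 in 2 of 6 and Kcnq3 in 2 of 3. Kcnk2 was above 0 in 5 of 6, from -0.16 in the Iapp cluster to 0.44 in the Anxa1/Iapp cluster, and Kcnk18 was below 0 in 3 of 3. With every cluster weighted equally, Kcnk2 had a mean log2(CPM + 1) of 3.26 and 3.22 in CPIP 1 and CPIP 2, against 2.58 and 2.75 in Sham 1 and Sham 2, a difference of 0.57 that was given no test and in which clusters with a few UMIs count as much as the Trpm8 cluster.

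**Figure D5:**
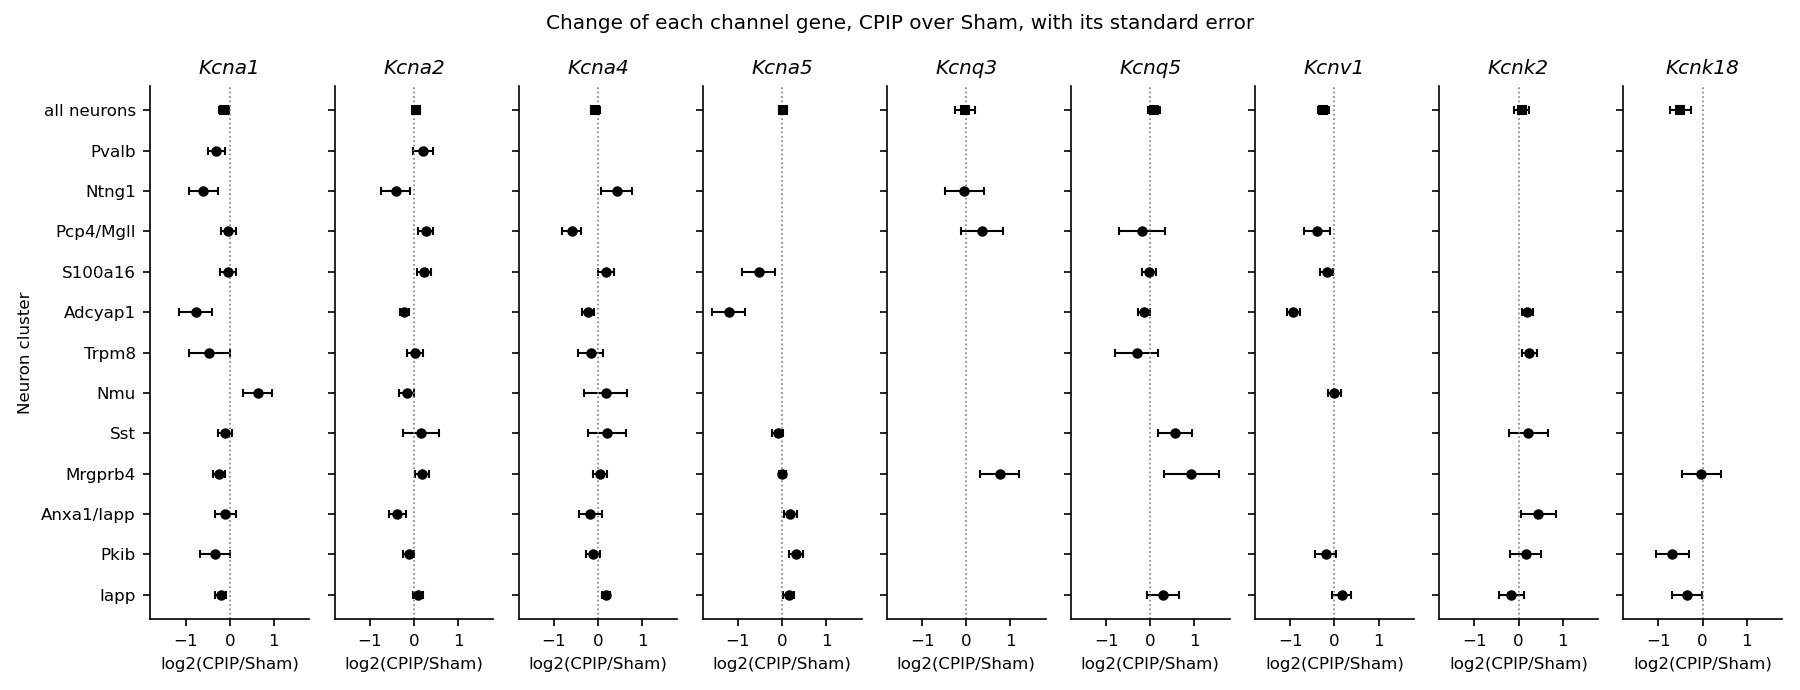
Log2 change of CPIP over Sham (horizontal axes) for each of the 9 channel genes in all neurons (squares, top row) and in each neuron cluster (circles), with whiskers of 1 standard error of the edgeR fit; combinations below the low-count filter are blank. Most points lie within 1 whisker or so of 0, Kcnv1 in the Adcyap1 cluster stands at -0.93, and the Kcna1 points lie left of 0 except in the Nmu cluster.

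Whether the change of a gene differed between clusters was tested directly, with cluster by group terms and each library as a block. None of the 9 genes was called by edgeR, against 0.00926% of the 10795 genes tested. Kcnv1, Kcna4 and Kcna5 were under 0.05 before adjustment, with edgeR adjusted p of 0.949, 0.949 and 0.994, and the other 6 genes were not. That level was reached by 3 of the 9, against 4.93% of all genes. DESeq2 was not run for this test.

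In the other classes tested, which were the satellite glia-, myelinating Schwann cell-, endothelial-, smooth muscle- and macrophage-like cells and an unnamed class led by Col3a1, 21 pairs of gene and class passed the filter. None was called by edgeR, against 0.00806% of all genes over the 6 tests, or by DESeq2, and 2 had an unadjusted p under 0.05, against 4.43% of all genes. Kcna5 in myelinating Schwann cell-like cells read 29.2 and 27.8 CPM in CPIP 1 and CPIP 2, against 36.8 and 59.6 CPM in Sham 1 and Sham 2 (log2 change -0.72, SE 0.30, edgeR adjusted p = 0.972). Kcna2 in satellite glia-like cells read 23.0 and 27.7 CPM in the CPIP libraries, against 17.6 and 20.7 CPM in the Sham libraries (log2 change 0.42, SE 0.14, adjusted p = 0.973). Myelinating Schwann cell markers summed in those satellite glia-like cells to 4731 and 4783 CPM in CPIP, against 5042 and 4172 CPM in Sham, and their part in the Kcna2 values was not tested. An unadjusted p under 0.05 was reached by 5.0% of all genes in myelinating Schwann cell-like and 3.44% in satellite glia-like cells. No channel gene of the 9 passed the filter in macrophage-like cells.

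A small cluster led by Vip and Gal, neuropeptides that sensory neurons make after axon injury, held 18 cells in CPIP 1, 14 in CPIP 2 and 0 in either Sham library, so that it allows no comparison of groups. Its cells are set here beside the other neurons of the same library, with exact Poisson 95% intervals that cover counting error only. Kcna1 stood at 289 CPM (199 to 406) in CPIP 1 and 100.3 CPM (51.8 to 175) in CPIP 2, beside 85.1 and 95.6 CPM in the other neurons. Kcna2 had 2 and 1 UMIs, or 17.5 CPM (2.12 to 63.4) and 8.36 CPM (0.212 to 46.6), beside 113 and 114 CPM in the other neurons. Kcna4 had 1 UMI in each library, with upper limits of 48.9 and 46.6 CPM beside 62.8 and 56.3 CPM. Kcna5 had 0 and 2 UMIs, with upper limits of 32.4 and 60.4 CPM beside 91.0 and 81.1 CPM. The intervals of Kcna2, Kcna4 and Kcna5 lie below the other neurons in both libraries. Kcnk2 had 35.1 CPM (9.56 to 89.8) and 66.9 CPM (28.9 to 132), beside 26.7 and 28.8 CPM. Kcnq3 had 5 and 2 UMIs, or 43.9 CPM (14.2 to 102) and 16.7 CPM (2.025 to 60.4), beside 3.23 and 3.58 CPM. In CPIP 1 the interval of Kcnq3, like that of Kcna1, lies above the other neurons. The other neurons are a mixture of types, and the type from which these 32 cells came is not known.

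In all neurons the wider family was tested too. Of 108 further genes in 11 lists, covering other potassium channels, their partners and regulators, and repressors described at these genes after nerve injury, 80 were tested and 0 were called by edgeR or by DESeq2. In total 42 of the 80 had a positive log2 change, with a median of 0.03, and 7 had an unadjusted p under 0.05. Over all 13644 genes, 7063 had a positive log2 change, with a median of 0.00701, and 531 (3.89%) had an unadjusted p under 0.05. By list, the electrically silent Kv subunits had 7 of 8 genes above 0 (median 0.45), the inward rectifiers 8 of 9 (median 0.24), the Kv2 to Kv4 channels and their partners 7 of 14 (median -0.01), and the other Kv7 and Kcne genes 2 of 3 (median 0.11). The EAG, ERG and ELK channels had 4 of 6 above 0 (median 0.06), the calcium- and sodium-activated channels 4 of 7 (median 0.07) and the repressors 3 of 5 (median 0.02). The other 2-pore channels had 2 of 7 (median -0.11), the axonal partners of Kv1 channels 3 of 10 (median -0.10), the regulators of Kcnk18, Kcnk2 and Kv7 channels 2 of 7 (median -0.02) and the other Kv1 and Kv-beta genes 0 of 4 (median -0.14). In none of the lists did a gene pass the adjusted test.

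The list genes with the highest levels in neurons were Ywhah, a 14-3-3 protein, at 5597 CPM (log2 change -0.01, SE 0.08), Epb41l3, which anchors Kv1 channels beside the node, at 505 CPM (-0.10, SE 0.08) and Ppp3cb, a catalytic subunit of calcineurin, at 496 CPM (-0.02, SE 0.07). Among list genes of at least 10 CPM with groups that did not overlap, the highest changes were those of Kcnj10, the Kir4.1 channel of satellite glia, with 15.5 and 17.7 CPM in CPIP 1 and CPIP 2, against 11.4 and 14.1 CPM in Sham 1 and Sham 2 (log2 change 0.39), Kcnc1 (0.33) and Kcne4 (0.32). Satellite glia markers summed in the same neurons to 723 and 806 CPM in CPIP, against 567 and 703 CPM in Sham, and their part in Kcnj10 was not tested. The lowest changes were those of Kcnk3, the TASK-1 leak channel, with 32.2 and 34.8 CPM in the CPIP libraries, against 38.2 and 43.3 CPM in the Sham libraries (log2 change -0.27), Adam22 (-0.26) and Kcnip1 (-0.19). These 9 list genes had an edgeR adjusted p of 0.969 or more.

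The counts changed when either CPIP library was left out, which leaves a single CPIP library whose spread is taken from Sham. Without CPIP 1, with CPIP 2, the library that stood apart, alone, 800 of 13965 genes were called in neurons, or 5.73%, and 5 of them were list genes, named after their values were seen: Kcnip2 (log2 change 1.16), Kcns1 (1.64) and Cntn2 (1.01) were higher in CPIP 2 than in Sham, and Kcnd1 (-0.39) and Kcnip1 (-0.39) were lower. Without CPIP 2, 68 genes (0.489%) were called and none was a list gene, and in either case 0 of the 9 channel genes was called. The make-up of the neurons moved with the libraries too: the Pvalb cluster had 84 and 110 cells in CPIP 1 and CPIP 2, against 30 and 45 in Sham 1 and Sham 2, and its part in these changes was not tested.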

How the data were processed

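Each deposited table holds whole-number UMI counts by gene and cell, not normalized, with no barcode under 500 UMIs; how the authors aligned reads, on which build, and how they called cells is not given in the sources used here. Cells with at least 200 genes and at most 25% mitochondrial UMIs were kept, and the 5% with the highest scrublet scores in each library were removed as doublets, because its automatic threshold marked 2, 278, 1 and 4 cells in CPIP 1, CPIP 2, Sham 1 and Sham 2. Clustering (scanpy 1.11.5, Leiden, 2000 variable genes without the listed genes, 30 components, 15 neighbours, resolution 1.0, and 0.5 within neurons) and class names from marker lists define likeness only. Low-UMI clusters are those whose cells' median depth was below that of their libraries divided by 3, with no marker of their own class leading. Counts were summed per library and class and tested with edgeR 4.0.16 (R 4.3.3; quasi-likelihood, TMM, filterByExpr, two-sided, Benjamini-Hochberg over all genes); DESeq2 1.42.0 was an alternative. Levels are CPM of the sums. The standard error is the log2 change divided by the root of F. Simulated counts were used to check the test. The channel genes, gene lists and markers were chosen with earlier results of these data known; named list genes are the 3 highest in level and the 3 highest and 3 lowest in log2 change among those with at least 10 CPM whose groups did not overlap. Replicate numbers come from the labels and nothing ties the same number to shared animals, so no replicate block was used in the main tests. It was run as an alternative, and the cluster by group test took each library as a block. P-values measure the spread between the libraries.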

Additional observations from a re-analysis of the deposited data

How the results depend on the processing

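Of the counts, 0 member genes called in all neurons and 0 in the other classes held under every alternative run, which were RLE size factors, no low-count filter, DESeq2, the replicate block and each library left out, and for neurons also a 10% mitochondrial limit, doublets kept and the low-UMI clusters added. Over the 12 clusters together, 0 calls became 1 without the low-count filter and 0 to 2 when 1 library was left out, and list genes called in neurons went over a range of 0 to 5. The number of genes whose highest cluster stood clear of the next by 1 SD was 2. It became 4 at the finer clustering, 4 with neurons thinned to 2000 UMIs and 2 to 5 with 1 library left out. It became 3 with the listed genes kept in the clustering. The cause was not tested. With the listed genes kept, no cluster had both Pcp4 and Mgll among its leading genes. Kcna1 and Kcna2 were then highest in a cluster led by Atp1b1, Cbln2 and Ntng1. Kcna4 was highest in one led by Iapp and Crh, and Kcnv1 in one led by S100a16.

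The log2 changes in neurons changed sign in 14 of 117 alternatives, none of them called and 3 of them with every cluster weighted equally. Kcna5 was at -0.028 with the low-UMI clusters added and Kcnq3 at 0.044 with the 10% mitochondrial limit. With 1 library left out the ranges were -0.024 to 0.14 for Kcna2, -0.15 to 0.019 for Kcna4, -0.077 to 0.10 for Kcna5, -0.25 to 0.24 for Kcnq3, -0.079 to 0.22 for Kcnq5 and -0.15 to 0.33 for Kcnk2. Kcna1, Kcnv1 and Kcnk18 kept their sign, at -0.26 to -0.0044, -0.38 to -0.11 and -0.71 to -0.33, in these ranges. With every cluster weighted equally Kcnv1 (0.11), Kcna2 (-0.023) and Kcnq5 (-0.15) changed sign, and Kcnk18 was at -0.035. In these means clusters with a few UMIs count as much as any other.

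Libraries with the same replicate number did not deviate together in neurons (r = -0.11 over 13644 genes), and the replicate block left 1 gene called in neurons, 0 of the 9 members, 0 list genes and 0 member calls in clusters or classes. With the numbers crossed, a pairing tried after seeing the data, 2 genes were called and 0 were members. Depth limits Kcnk18 and Kcnq3 most, with 263 and 355 UMIs in neurons, and no member was tested in clusters with fewer than 30 cells in a library.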
